A study of Mus musculus with 15 samples.

Results

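The genes described here encode the enzymes that make cholesterol and long-chain fatty acids, together with proteins that control them. They are 29 genes named by pathway and matched by Ensembl ID to GENCODE symbols, of 55471 gene IDs counted in each library. The sterol branch holds 18 enzymes from acetyl-CoA to cholesterol, the fatty acid branch holds 6 enzymes from citrate to unsaturated fatty acids, and 5 further genes encode regulators and a sterol carrier.

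RNA-seq counts per gene came from 15 libraries of mouse E14 embryonic stem cells (mESCs) and embryoid bodies (EBs, floating aggregates in which the cells differentiate), in 5 groups of 3. Both EB groups and 1 mESC group are of the NSD1-dTAG knock-in line, in which NSD1, a histone H3K36 methyltransferase, carries a degron tag, and dTAG-13 is a small molecule that brings proteins with this tag to a ubiquitin ligase for degradation. NSD1-dTAG EBs grew for 6 days with 500 nM dTAG-13 or without it, and NSD1-dTAG mESCs were nontreated. Wild-type mESCs, which have no tag, had 500 nM dTAG-13 for 72 h or no treatment. EBs of the wild-type line, and mESCs of the tagged line with dTAG-13, were not analysed here, and the libraries hold no measure of NSD1 protein. The mESCs grew in serum-free medium with LIF and the 2i inhibitors, while the EB medium held 10% fetal bovine serum, so EB formation and the change of medium cannot be told apart. The labels call the 3 libraries of a group biological replicates without naming their cultures, so p-values cover the spread among these libraries, which may be technical.

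Cells make cholesterol from acetyl-CoA through mevalonate, isoprenoids, squalene and lanosterol, and they make fatty acids from cytosolic acetyl-CoA by carboxylation, chain synthesis, elongation and desaturation. SREBP transcription factors drive genes of both branches. The escort protein SCAP carries their precursors from the endoplasmic reticulum to the Golgi for cleavage when membrane sterols are low, and INSIG proteins retain them when sterols are high.

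The promoters of 4 genes that the results turn on are shown with the letters that were searched. Hmgcs1 had a like level in nontreated EBs and NSD1-dTAG mESCs. Tm7sf2, Fasn and Ebp were lower in nontreated EBs than in those mESCs, and Ebp was also lower in EBs with dTAG-13. The promoters are RefSeq sequences of build GRCm38.p6, from 250 bases before to 50 bases after the annotated start, on the strand of the gene. Capitals mark TCACNCCAC, a form of the sterol regulatory element that SREBP proteins bind, and CCAAT or its reverse complement ATTGG, the box bound by their cofactor NF-Y. Hmgcs1 lies on the plus strand at chr13:119690101-119690400. The other 3 are on the minus strand, Tm7sf2 at chr19:6067801-6068100, Ebp at chrX:8193463-8193762 and Fasn at chr11:120824498-120824797.
Hmgcs1: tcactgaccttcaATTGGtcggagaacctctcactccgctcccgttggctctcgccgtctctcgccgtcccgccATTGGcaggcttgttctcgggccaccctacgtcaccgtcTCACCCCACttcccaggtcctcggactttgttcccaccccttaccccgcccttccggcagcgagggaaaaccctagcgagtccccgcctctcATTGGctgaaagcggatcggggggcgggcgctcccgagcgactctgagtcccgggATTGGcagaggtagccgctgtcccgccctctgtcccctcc
Tm7sf2: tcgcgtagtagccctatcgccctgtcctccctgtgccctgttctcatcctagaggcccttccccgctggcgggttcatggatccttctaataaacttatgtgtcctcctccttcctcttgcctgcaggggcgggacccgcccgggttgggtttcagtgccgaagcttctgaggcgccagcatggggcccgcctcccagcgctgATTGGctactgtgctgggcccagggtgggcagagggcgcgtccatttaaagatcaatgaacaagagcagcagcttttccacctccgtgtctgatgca
Ebp: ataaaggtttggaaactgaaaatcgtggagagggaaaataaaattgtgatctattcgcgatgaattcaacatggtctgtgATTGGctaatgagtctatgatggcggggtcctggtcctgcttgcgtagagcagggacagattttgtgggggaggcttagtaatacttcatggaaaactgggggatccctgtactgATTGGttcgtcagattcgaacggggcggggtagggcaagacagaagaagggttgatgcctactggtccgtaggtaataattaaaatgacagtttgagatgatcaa
Fasn: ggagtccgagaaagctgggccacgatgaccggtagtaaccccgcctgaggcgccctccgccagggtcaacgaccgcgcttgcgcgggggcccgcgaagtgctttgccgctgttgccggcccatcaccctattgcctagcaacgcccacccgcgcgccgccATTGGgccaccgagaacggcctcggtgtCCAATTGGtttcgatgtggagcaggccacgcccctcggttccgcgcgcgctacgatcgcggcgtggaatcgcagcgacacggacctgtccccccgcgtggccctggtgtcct
Of the 29 genes, 23 were found in the promoter table. Hmgcs1 was the only one of them with TCACNCCAC on either strand, at 137 bases before the start, and 1.436% of 27025 genes had it. CCAAT on either strand was found for 14 of 15 sterol branch genes, 3 of 4 regulator genes and 2 of 4 fatty acid branch genes, against 41.06% of all genes. Dhcr7, Pmvk, Srebf1 and Scap have several annotated starts, and a gene was counted if any of its promoters held a match. In Fasn a CCAAT and an ATTGG share letters, and no TCACNCCAC overlapped a CCAAT in these promoters. Fdps, Fdft1, Sqle, Stard4, Scd1 and Scd2 had no entry in the table. A match describes letters in this window only.

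Gene counts per library ranged from 18704591 to 29103958. In each group 1 library stood apart: library 3 of the dTAG-13 EBs, of the nontreated EBs and of the dTAG-13 wild-type mESCs, and library 1 of the NSD1-dTAG mESCs and of the nontreated wild-type mESCs. Their read-weighted exon length was 4.99 to 5.50 kb against 5.71 to 5.93 kb in the other 10, and their share of counts on ribosomal protein genes was 6.33% to 8.84% against 5.21% to 5.87%. Levels below are CPM, gene counts divided by the library total with TMM factors over all 15 libraries. Marker genes went with the labels. The 7 pluripotency markers summed to 1300 to 1398 CPM in dTAG-13 EBs, 1662 to 1760 CPM in nontreated EBs and 5289 to 5376 CPM in NSD1-dTAG mESCs.

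As a share of counts, EBs had less RNA of both branches than mESCs, and the summed fatty acid branch was the further below. The EB libraries hold no spike-in counts, so amounts of RNA were not measured. Summed over its 18 genes, the sterol branch was at 1140 ± 43.0 CPM in dTAG-13 EBs, 1159 ± 119 CPM in nontreated EBs, 1733 ± 78.5 CPM in NSD1-dTAG mESCs, 1730 ± 38.6 CPM in dTAG-13 wild-type mESCs and 1709 ± 28.1 CPM in nontreated wild-type mESCs (SD, n = 3 each). The 6 fatty acid branch genes summed to 1457 ± 246 CPM in dTAG-13 EBs, 1678 ± 34.2 CPM in nontreated EBs, 4788 ± 768 CPM in NSD1-dTAG mESCs, 4630 ± 367 CPM in dTAG-13 wild-type mESCs and 4590 ± 304 CPM in nontreated wild-type mESCs. EB and mESC libraries did not overlap in either sum. Between nontreated EBs and NSD1-dTAG mESCs the lowest log2 fold changes of the fatty acid branch were those of Scd1 (-3.30) and Scd2 (-2.11), while its other 4 genes lay between -1.004 and -0.42, beside a median of -0.71 in the sterol branch. The mean log2(CPM + 1) of the sterol branch minus that of the fatty acid branch was -2.07 ± 0.24 in dTAG-13 EBs, -2.19 ± 0.12 in nontreated EBs and -2.78 ± 0.38 in NSD1-dTAG mESCs. In wild-type mESCs it was -2.76 ± 0.25 with dTAG-13 and -2.82 ± 0.16 without. In all 5 groups the highest of the 3 differences was that of the library that stands apart, and in NSD1-dTAG mESC library 1 the fatty acid sum was 3901 CPM against 5221 and 5241 CPM in libraries 2 and 3. These sums are descriptions without a test. In bulk RNA, fewer cells of a type and less RNA per cell cannot be told apart.

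**Figure D1:**
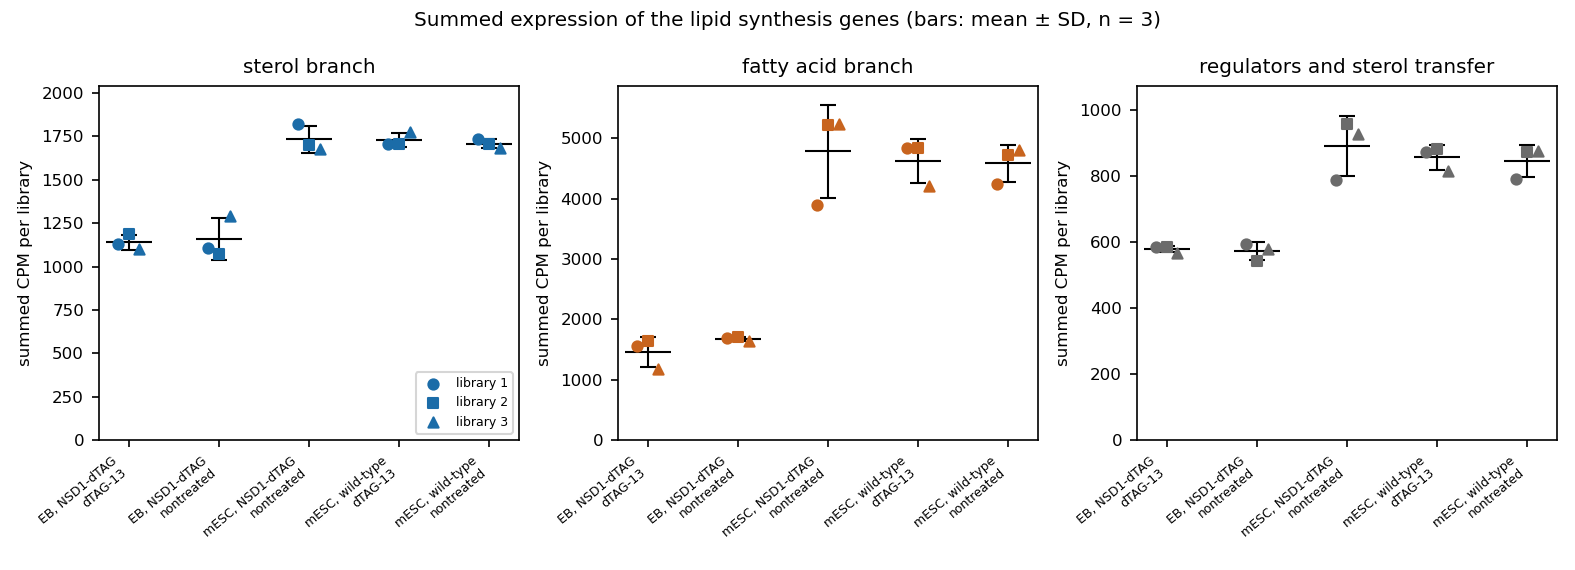
Summed CPM of the sterol branch (18 genes), the fatty acid branch (6 genes) and the regulators with the sterol carrier (5 genes) in each library, with the 5 groups on the x axis and the mean ± SD of 3 libraries as bars. EB libraries sit below mESC libraries in all 3 panels, at 1176 to 1710 CPM against 3901 to 5241 CPM in the fatty acid panel.

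Levels were ordered between genes per kilobase of exon, as TPM. In nontreated EBs Acly, which makes cytosolic acetyl-CoA from citrate, was at 338 ± 7.85 TPM, followed by Scd2 at 332 ± 39.1 TPM, Hmgcs1 at 293 ± 8.59 TPM and Fasn, the fatty acid synthase gene, at 169 ± 16.7 TPM. The levels of Acly and Scd2 lay within their spread. In NSD1-dTAG mESCs Scd2, which encodes a stearoyl-CoA desaturase, was at 1224 ± 276 TPM, followed by Acly at 576 ± 110 TPM, the desaturase gene Scd1 at 314 ± 91.4 TPM and Fasn at 294 ± 118 TPM. There the levels of Scd1 and Fasn lay within their spread. The lowest of the 29 levels was that of Tm7sf2 in nontreated EBs, 3.62 ± 0.23 TPM, and that of Fdps in NSD1-dTAG mESCs, 9.31 ± 0.89 TPM. Both genes share exon bases with another gene on their strand, 532 for Tm7sf2 and 1124 for Fdps, so these 2 levels are uncertain.

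To describe the pathway at day 6 of EB formation, EBs without dTAG-13 were set against NSD1-dTAG mESCs without it. The medium differs between these groups as well, so its part cannot be told apart. In EBs 23 of the 29 genes fell, 1 rose and 5 were not called, at an adjusted p below 0.05 by edgeR's quasi-likelihood test with Benjamini-Hochberg adjustment over all genes. Of 15193 genes tested, 59.5% were called, 26.3% lower and 33.1% higher. At an unadjusted p below 0.05 there were 24 of the 29 genes and 63.8% of all genes. Without overlap between the groups 1 of the 29 was higher and 23 were lower, where 36.7% and 31.0% of all genes were. The median log2 fold change was -0.74 over the 29 genes and 0.02 over all genes tested. Falls were 15 of 18 in the sterol branch (median -0.71), 5 of 6 in the fatty acid branch (median -0.997) and 3 of 5 among the regulators, which also held the rise. Markers moved as well: 7 of 7 pluripotency markers fell, and 3 of 3 epiblast, 4 of 4 streak and mesoderm, 10 of 10 extraembryonic endoderm and 4 of 4 fibroblast markers rose. Of 2 neural markers Pax6 rose and Sox1 was not called (log2 -0.56, adjusted p = 0.277 by edgeR). The extraembryonic endoderm markers summed to 306 to 461 CPM in nontreated EBs and 2.21 to 2.49 CPM in NSD1-dTAG mESCs, and the fibroblast markers to 12.2 to 20.9 CPM in nontreated EBs and 0.490 to 0.613 CPM in NSD1-dTAG mESCs. The part of these cell types in the falls was not tested.

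Of 7 genes from acetyl-CoA to farnesyl diphosphate, 5 fell. Acat2, which joins acetyl-CoA units in the cytosol, fell 2.30-fold, with 43.8, 50.1 and 61.1 CPM in nontreated EBs against 134, 117 and 111 CPM in NSD1-dTAG mESCs. A near copy, Acat3, is 97.7% identical to Acat2 over 1477 bp, and Tcp1 shares 445 bp with it. Hmgcs1, the HMG-CoA synthase gene, had 349.5, 336 and 384 CPM in nontreated EBs against 349.5, 351 and 334 CPM in NSD1-dTAG mESCs. Its groups overlapped, with a log2 fold change of 0.07 (SE 0.10, adjusted p = 0.586 by edgeR) that was -0.02 with a gene-length offset and -0.03 with that offset and a replicate block. Mvk, mevalonate kinase, was at 25.2 ± 3.12 CPM in nontreated EBs and 51.3 ± 10.4 CPM in NSD1-dTAG mESCs (log2 -1.003, SE 0.16). Pmvk, phosphomevalonate kinase, had 24.1, 22.1 and 28.6 CPM in nontreated EBs against 103, 69.2 and 68.7 CPM in NSD1-dTAG mESCs (log2 -1.67, SE 0.19). In both kinase genes every EB library lay below every mESC library, and mESC library 1 was the highest. Mvd, the diphosphomevalonate decarboxylase gene, had a log2 fold change of -0.17 (adjusted p = 0.28). Idi1, the isopentenyl-diphosphate isomerase gene, fell by 0.37 and Fdps, the farnesyl-diphosphate synthase gene, by 0.65 on the log2 scale. Fdps shares 1124 exon bases with Gm43738 on its strand, so its counts are uncertain to the extent of shared reads.

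From squalene to cholesterol 10 of 11 genes fell. Tm7sf2, a sterol C14 reductase gene, had 4.14, 3.83 and 4.71 CPM in nontreated EBs against 31.8, 26.1 and 24.2 CPM in NSD1-dTAG mESCs. That was 6.38-fold lower, with no overlap (log2 -2.67, SE 0.16, adjusted p = 3.56e-06 by edgeR). Tm7sf2 shares 532 exon bases with Vps51 on the same strand, so its counts are uncertain to the extent of shared reads. Ebp, which encodes the sterol isomerase that moves the ring double bond of late sterols, had 25.1, 23.9 and 23.5 CPM in nontreated EBs against 67.7, 49.5 and 51.0 CPM in NSD1-dTAG mESCs (log2 -1.19, SE 0.14, adjusted p = 1.52e-04 by edgeR). Dhcr7, the last reductase of its route, had 45.7, 44.5 and 59.7 CPM in nontreated EBs against 84.5, 106 and 104 CPM in NSD1-dTAG mESCs. Both genes were lower in each EB library than in any mESC library. Sqle, squalene epoxidase, had 135, 124 and 169 CPM in nontreated EBs against 229, 227 and 232 CPM in NSD1-dTAG mESCs (log2 -0.67, SE 0.13). The C4 demethylation genes Msmo1 and Nsdhl fell by 1.04 and 0.85 on the log2 scale, while Hsd17b7, of the same complex, had a log2 fold change of -0.22 (adjusted p = 0.293). Fdft1, squalene synthase, fell by 0.74, Lss, lanosterol synthase, by 0.46, Sc5d, lathosterol oxidase, by 0.41 and Cyp51, the lanosterol demethylase gene, by 0.38 on the log2 scale. Fdft1 shares 774 bases with Ctsb and Cyp51 166 bases with Akap9, on opposite strands. Among the sterol branch genes 5 calls rested on few libraries: without EB library 1, or without EB library 2, the calls of Fdps, Cyp51, Sc5d, Lss and Idi1 ended and 18 of the 29 genes were called lower. Without mESC library 2 those of Cyp51, Idi1, Lss and Sc5d ended, and without mESC library 3 those of Idi1, Lss and Sc5d. Calls over all genes fell as well. With all libraries 4002 of 15193 genes were lower, against 3237 of 15489 without EB library 1 and 3141 of 15458 without EB library 2. It was 3716 of 15667 without mESC library 2 and 3766 of 15691 without mESC library 3.

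Regulators did not move together. Srebf1, which encodes the SREBP most tied to fatty acid synthesis, had 67.4, 60.5 and 58.3 CPM in nontreated EBs against 207, 213 and 209 CPM in NSD1-dTAG mESCs. It was 3.33-fold lower (log2 -1.74, SE 0.11, adjusted p = 4.07e-06 by edgeR), and the groups stood far apart beside their spread. Srebf2, which encodes the SREBP most tied to sterol synthesis, had 327, 286 and 296 CPM in nontreated EBs against 297, 418 and 399 CPM in NSD1-dTAG mESCs. Its groups overlapped through mESC library 1, and it was not called (log2 -0.27, adjusted p = 0.154). Srebf2 was called lower in 4 of 13 alternatives, among them the gene-length offset and the fit without mESC library 1, which stands apart. Scap rose 1.67-fold, with 45.4, 50.1 and 50.4 CPM in nontreated EBs against 28.5, 28.5 and 31.5 CPM in NSD1-dTAG mESCs (log2 0.74, SE 0.11, adjusted p = 5.33e-04 by edgeR). Insig1, which retains SCAP and is itself an SREBP target, fell by 1.06, and Stard4, a cytosolic sterol carrier, by 0.57 on the log2 scale.

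**Figure D2:**
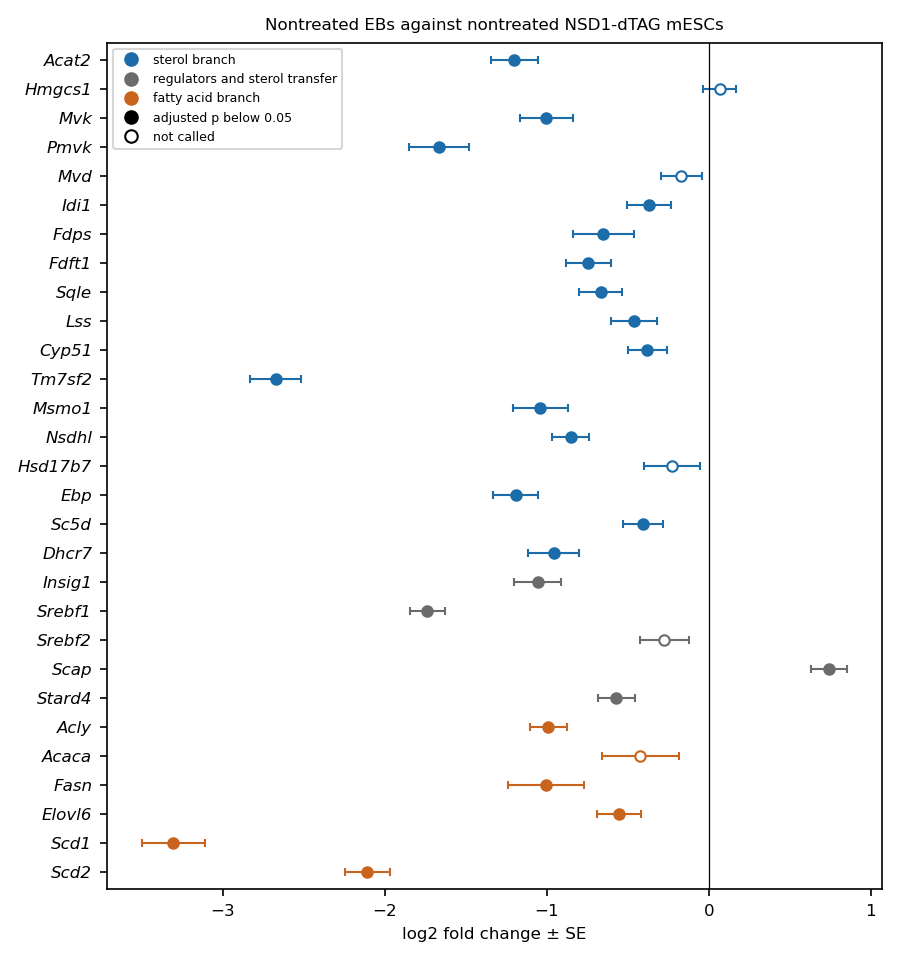
Log2 fold change of nontreated EBs over nontreated NSD1-dTAG mESCs (x axis) for each of the 29 genes (y axis), with the SE as bars, by edgeR on 3 libraries a group. Filled points have an adjusted p below 0.05. Scap at 0.74 is the filled point right of 0, and Scd1 at -3.30 is the lowest.

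In the fatty acid branch the 2 desaturase genes had lower log2 fold changes than the other 4. Scd1 had 43.6, 43.0 and 56.4 CPM in nontreated EBs against 374, 536 and 522 CPM in NSD1-dTAG mESCs, 9.88-fold lower (log2 -3.30, SE 0.19, adjusted p = 3.37e-06 by edgeR). Scd2 had 477, 516 and 442 CPM in nontreated EBs against 1813, 2219 and 2236 CPM in NSD1-dTAG mESCs, 4.31-fold lower (log2 -2.11, SE 0.14). Neither gene's groups came near each other. The transcripts are 95.5% identical over 623 bp, so reads from that stretch cannot be placed with certainty. Fasn had 510, 500 and 452 CPM in nontreated EBs against 630, 1161 and 1175 CPM in NSD1-dTAG mESCs (log2 -1.004, SE 0.23, adjusted p = 0.00617 by edgeR). Acly, which feeds both branches, had 457, 458 and 502 CPM in nontreated EBs against 868, 998 and 991 CPM in NSD1-dTAG mESCs (log2 -0.99, SE 0.11). The falls of Acly and Fasn were close to 2-fold without overlap, although Fasn in mESC library 1 was near the EB level. Elovl6, which elongates palmitate, fell by 0.55 on the log2 scale. Acaca, acetyl-CoA carboxylase, had 50.3, 48.7 and 48.4 CPM in nontreated EBs against 41.6, 79.4 and 78.9 CPM in NSD1-dTAG mESCs and was not called (log2 -0.42, adjusted p = 0.156). Acaca was called lower in 4 of 13 alternatives, among them the gene-length offset and the fit without mESC library 1. For this gene 1 processed copy, Gm5182, is 99.2% identical over 6118 bp.

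Other lipid genes, listed by role, moved in both directions. Of 10 uptake and transport genes 6 rose and 2 fell, among them Soat1, which esterifies cholesterol for storage, at 244 ± 15.2 CPM in nontreated EBs and 28.5 ± 4.43 CPM in NSD1-dTAG mESCs (log2 3.12). The lipoprotein receptor gene Vldlr (log2 2.98) and the lysosomal lipase gene Lipa (log2 1.54) also rose, and the HDL receptor gene Scarb1 fell by 0.74. Of 8 efflux and LXR genes 1 rose and 5 fell. Abca1, the cholesterol exporter and an LXR target, was at 2.46 ± 0.65 CPM in nontreated EBs and 80.2 ± 26.9 CPM in NSD1-dTAG mESCs (log2 -5.01), Abca3 rose by 3.22, and Mylip and Pltp fell by 1.17 and 0.92. Of 10 other SREBP processing genes 2 rose and 1 fell. Faf2 rose by 0.32 and Sec23a, of the COPII coat, fell by 0.77 on the log2 scale. Of 9 isoprenoid-using genes 2 rose (Coq2 at 1.25, Ggps1 at 0.54) and 3 fell (among them Fntb at -0.83 and Pdss1 at -1.19).

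Of 15 other fatty acid synthesis genes 5 rose and 7 fell, with Mid1ip1 at 1.43, Elovl1 at 1.119, Acsl4 at 1.05 and Thrsp at -3.88 (0.06 ± 0.04 CPM in nontreated EBs and 0.93 ± 0.39 CPM in NSD1-dTAG mESCs). Of 8 glycerolipid genes 3 rose and 3 fell: Agpat3 was at 161 ± 18.9 CPM in nontreated EBs and 8.21 ± 1.01 CPM in NSD1-dTAG mESCs (log2 4.31), Dgat2 rose by 2.59, and Agpat2 and Lpin1 fell by 0.86 and 1.17. Of 14 fatty acid oxidation genes 3 rose and 9 fell, with the dehydrogenase gene Acadl at 2.02, the carnitine transferase genes Cpt2 at 1.80 and Cpt1a at -1.80, and Acadm at -1.87. Medians were 0.51 for uptake and transport, -0.56 for efflux, -0.30 for other fatty acid synthesis and -0.57 for oxidation, against 0.02 over all genes.

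To see what dTAG-13 did in the tagged line, dTAG-13 EBs were compared with nontreated EBs. Of the 29 genes 1 fell, Ebp, and none rose (edgeR, adjusted p below 0.05), where 6.76% of 15236 genes were called, 2.78% lower and 3.98% higher. At an unadjusted p below 0.05 there were 8 of the 29 genes and 21.7% of all genes. The median log2 fold change was -0.10 over the 29 genes, -0.09 in the sterol branch and -0.16 in the fatty acid branch, against -0.01 over all genes.

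Ebp (ENSMUSG00000031168.14) lies on the X chromosome at 8185329 to 8193512 of GRCm38, minus strand. It had 10.6, 13.2 and 12.7 CPM in dTAG-13 EBs against 25.1, 23.9 and 23.5 CPM in nontreated EBs. All 3 treated libraries lay below every nontreated one, with a gap wider than the spread of either group. The fall was 1.99-fold (log2 -0.99, SE 0.12, adjusted p = 0.00628 by edgeR), and it was called in all 13 alternatives, at -1.06 to -0.90 with a largest adjusted p of 0.0357. Of the steps around it, Nsdhl was at 28.2, 32.0 and 32.7 CPM in dTAG-13 EBs against 33.2, 33.6 and 39.3 CPM in nontreated EBs, without overlap (log2 -0.20, adjusted p = 0.37). Hsd17b7 was at 16.9, 17.4 and 11.7 CPM in dTAG-13 EBs against 20.8, 25.3 and 17.9 CPM in nontreated EBs, also without overlap (log2 -0.48, adjusted p = 0.174). Neither gene was called, although Hsd17b7 was with the replicate block. Sc5d had a log2 fold change of 0.14 (adjusted p = 0.509) and Dhcr7 of 0.03 (adjusted p = 0.937).

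Scd2 was the largest difference in the fatty acid branch. It had 296, 360 and 205 CPM in dTAG-13 EBs against 477, 516 and 442 CPM in nontreated EBs. The groups did not overlap, but the treated libraries spread widely, and the gene missed the threshold (log2 -0.74, SE 0.19, adjusted p = 0.0556 by edgeR). It was called in 8 of 13 alternatives, with the adjusted p between 0.00338 and 0.195. Scd1 had 42.0, 46.7 and 37.5 CPM in dTAG-13 EBs against 43.6, 43.0 and 56.4 CPM in nontreated EBs, which overlap (log2 -0.19, adjusted p = 0.512). Acly had 395, 383 and 375 CPM in dTAG-13 EBs against 457, 458 and 502 CPM in nontreated EBs, without overlap (log2 -0.30, adjusted p = 0.084). Fasn (log2 0.20), Elovl6 (-0.13) and Acaca (0.01) had adjusted p-values of 0.528 or above.

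In the sterol branch Sqle had 187, 188 and 179 CPM in dTAG-13 EBs against 135, 124 and 169 CPM in nontreated EBs (log2 0.37, adjusted p = 0.135). Tm7sf2 had 6.42, 5.48 and 7.02 CPM in dTAG-13 EBs against 4.14, 3.83 and 4.71 CPM in nontreated EBs (log2 0.57, adjusted p = 0.0864). Both were higher in each treated library than in any nontreated one, and neither was called. Mvd had 34.2, 34.4 and 37.4 CPM in dTAG-13 EBs against 43.5, 42.6 and 50.4 CPM in nontreated EBs (log2 -0.37, adjusted p = 0.0768). In all, 2 of the 29 genes were higher and 7 lower without overlap, where 14.4% and 13.3% of all genes were. The other sterol genes, Acat2, Hmgcs1, Mvk, Pmvk, Idi1, Fdps, Fdft1, Lss, Cyp51 and Msmo1, had log2 fold changes between -0.24 and 0.07, and their groups overlapped. Srebf1 (-0.08), Srebf2 (0.11), Scap (0.08), Insig1 (-0.17) and Stard4 (-0.19) were not called.

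Deviations from the group mean correlated at 0.23, 0.27 and 0.37 between same-numbered EB libraries. Between libraries 1 and 2 across the groups they correlated at 0.175 and 0.103. Library 3 stands apart in both EB groups, so these values do not show that the numbers pair the libraries. With the replicate number as a block 1834 genes were called. Among the 29, Tm7sf2 was then called higher and Ebp, Scd2, Mvd, Acly and Hsd17b7 lower, with log2 fold changes of 0.57, -0.999, -0.78, -0.37, -0.30 and -0.49. Without library 3 of both groups, which stand apart, 3233 genes were called and Fasn, Sqle and Tm7sf2 were higher while Ebp, Scd2, Mvd, Acly and Hsd17b7 were lower. Those libraries were picked from these same data, so that fit covers less spread than one with all libraries. Leaving out dTAG-13 library 3 alone made Fasn (log2 0.37) and Scd2 pass, leaving out dTAG-13 library 2 made Scd2 pass, and leaving out nontreated library 3 made Sqle pass (log2 0.51). Over all genes 1148, 395 and 1293 were called in those 3 fits. The count was 184 without dTAG-13 library 1, and 301 and 182 without nontreated libraries 1 and 2.

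**Figure D3:**
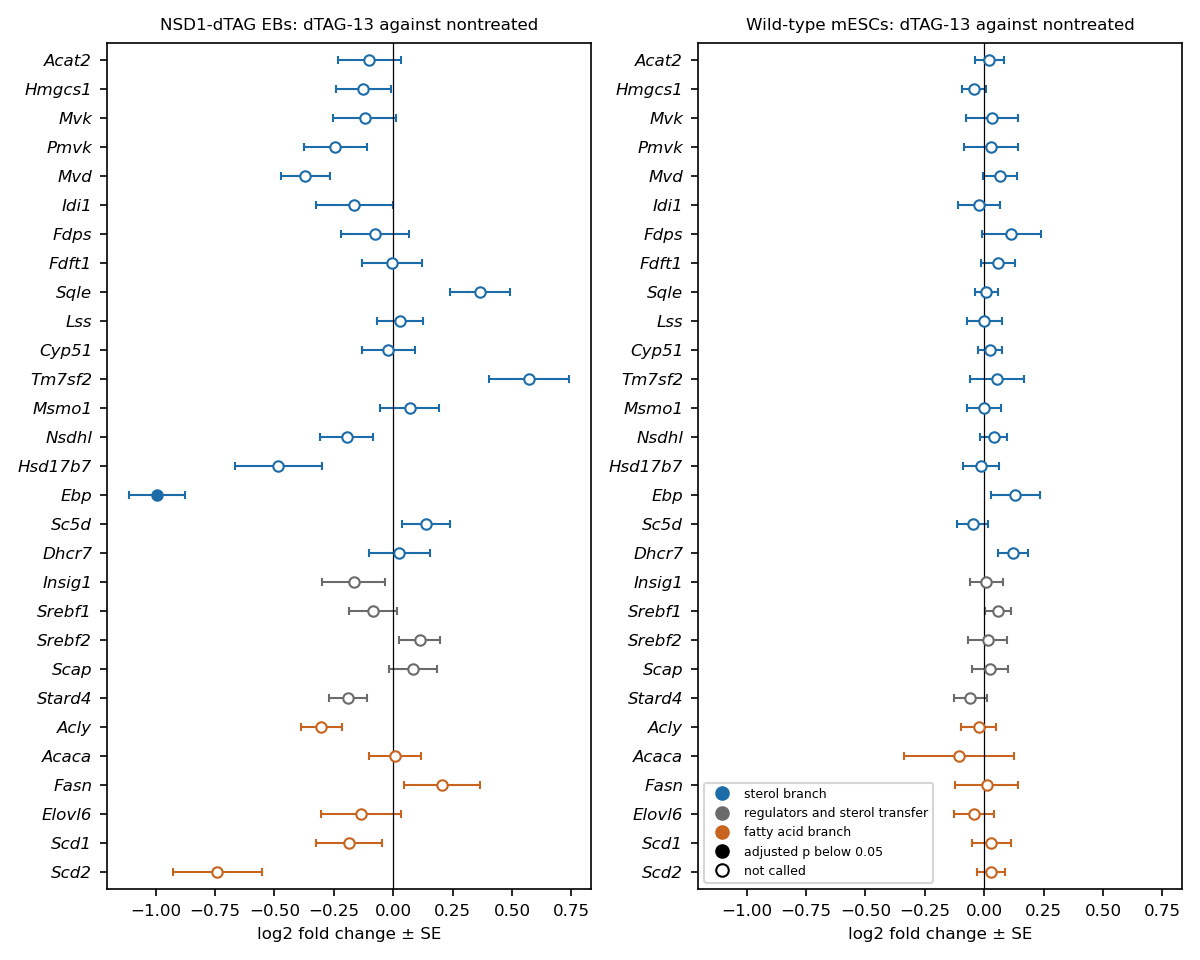
Log2 fold change ± SE with dTAG-13 for the 29 genes (y axis), in NSD1-dTAG EBs (left) and in wild-type mESCs (right), by edgeR on 3 libraries a group, with filled points for an adjusted p below 0.05. Ebp at -0.99 in EBs is the only filled point, and in wild-type mESCs the values lie between -0.11 and 0.13.

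Cell type markers also differed between EBs with and without dTAG-13. Of the marker lists, 4 of 7 pluripotency, 3 of 4 streak and mesoderm and 1 of 2 neural markers fell, and 0 of 3 epiblast, 0 of 10 extraembryonic endoderm and 0 of 4 fibroblast markers were called. Streak and mesoderm markers summed to 26.6 to 110 CPM in dTAG-13 EBs and 278 to 704 CPM in nontreated EBs. The part of these shifts in the fall of Ebp was not tested. Among the other lipid genes 4 rose, the sterol exporter gene Abcg1 (43.4 ± 4.89 CPM in dTAG-13 EBs and 21.6 ± 3.86 CPM in nontreated EBs, log2 1.00, adjusted p = 0.0128 by edgeR), the sterol transfer gene Gramd1a (log2 0.76), the acyl-CoA synthetase gene Acsl4 (0.80) and the carboxylase gene Acacb (0.47). The acyltransferase genes Agpat3 (90.7 ± 13.2 CPM in dTAG-13 EBs and 161 ± 18.9 CPM in nontreated EBs, log2 -0.83) and Dgat2 (-0.80) and the thiolase gene Acaa2 (-0.92) fell. By list, the calls were 1 of 8 efflux and LXR genes, 1 of 10 uptake and transport genes and 2 of 14 other fatty acid synthesis genes tested. Of glycerolipid genes they were 2 of 8 and of oxidation genes 1 of 14, where 6.76% of all genes were called. None of 10 other SREBP processing genes, with Mbtps1 at -0.03, and none of 9 isoprenoid-using genes, with Fnta at 0.11, was called.

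Wild-type mESCs, which carry no tag, served to show what dTAG-13 does by itself. None of the 29 genes was called with dTAG-13, and none of 13784 genes was (0.00%; edgeR). At an unadjusted p below 0.05 edgeR had 0 of the 29 genes and 229 of all genes (1.66%), and DESeq2 called 0 with 79 genes at that level. The log2 fold changes of the 29 genes lay between -0.11 for Acaca and 0.13 for Ebp, with a median of 0.02. Dhcr7 was higher without overlap and none was lower, where 3.03% and 2.97% of all genes were. Ebp had 51.8, 56.2 and 67.9 CPM in dTAG-13 wild-type mESCs against 57.1, 52.8 and 50.1 CPM in nontreated wild-type mESCs, which overlap. Scd2 had 2049, 2051 and 1960 CPM in dTAG-13 wild-type mESCs against 1853, 2005 and 2070 CPM in nontreated wild-type mESCs. The 2 dTAG-13 effects were tested against each other as an interaction over 12 libraries, and the difference for Ebp was -1.13 on the log2 scale (SE 0.16, adjusted p = 0.00299 by edgeR), 1 of 29 genes called where 2.88% of 15855 genes were, 1.27% lower and 1.60% higher. It was called in all 18 alternatives. That of Scd2 was -0.78 (adjusted p = 0.0708), and it was called in 7 of 18 alternatives, among them the replicate block (-0.81, adjusted p = 0.0203 by edgeR). In that block the numbers do not pair the wild-type mESC libraries, whose same-numbered correlations of deviations were -0.29, 0.23 and -0.25. The EBs and the wild-type mESCs differ in line, cell state and time of exposure, so the tag cannot be told apart from these in that test.

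The knock-in line by itself was compared with wild-type mESCs, both nontreated. Of the 29 genes none was called (edgeR), where 1.86% of 13895 genes were, 0.547% higher and 1.32% lower, and 1 of 29 had an unadjusted p below 0.05, against 14.1% of all genes. DESeq2 also called 0 of them, with 1 at an unadjusted p below 0.05. That gene was Hmgcs1, at 349.5, 351 and 334 CPM in NSD1-dTAG mESCs against 394, 398 and 379 CPM in nontreated wild-type mESCs, which do not overlap (log2 -0.19, SE 0.07, adjusted p = 0.253). Log2 fold changes of the 29 genes ran up to 0.33 for Pmvk, with a median of 0.06. Cyp51, Tm7sf2 and Srebf1 were higher and Hmgcs1 and Scap lower without overlap, 3 and 2 of 29 where 9.62% and 12.2% of all genes were. Ebp had 67.7, 49.5 and 51.0 CPM in NSD1-dTAG mESCs against 57.1, 52.8 and 50.1 CPM in nontreated wild-type mESCs. Without library 1 of both groups, which stand apart, 3123 of 13762 genes were called, 1587 higher and 1536 lower, and 10 of the 29 passed: Pmvk, Elovl6, Srebf1, Srebf2, Acly, Fasn, Scd1 and Scd2 higher, by at most 0.20, and Hmgcs1 and Scap lower, at -0.19 and -0.18 on the log2 scale. Chi-square divided by degrees of freedom between the 2 libraries left was 2.17 in NSD1-dTAG and 1.67 in wild-type mESCs. The p-values of that fit therefore cover little spread. Leaving out NSD1-dTAG library 1 alone made Elovl6 and Scd1 pass, at 0.24 both, with 1248 of 14035 genes called. In that comparison and in the one of dTAG-13 in wild-type mESCs the same nontreated wild-type libraries are used, and the nontreated EB and NSD1-dTAG mESC libraries likewise serve in 2 comparisons each. In both comparisons of mESCs 0 members of the 7 other lipid lists were called, with Abca1 at 0.71 (adjusted p = 0.293) between the lines and Npc2 at 0.08 with dTAG-13 (adjusted p = 1).

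**Figure D4:**
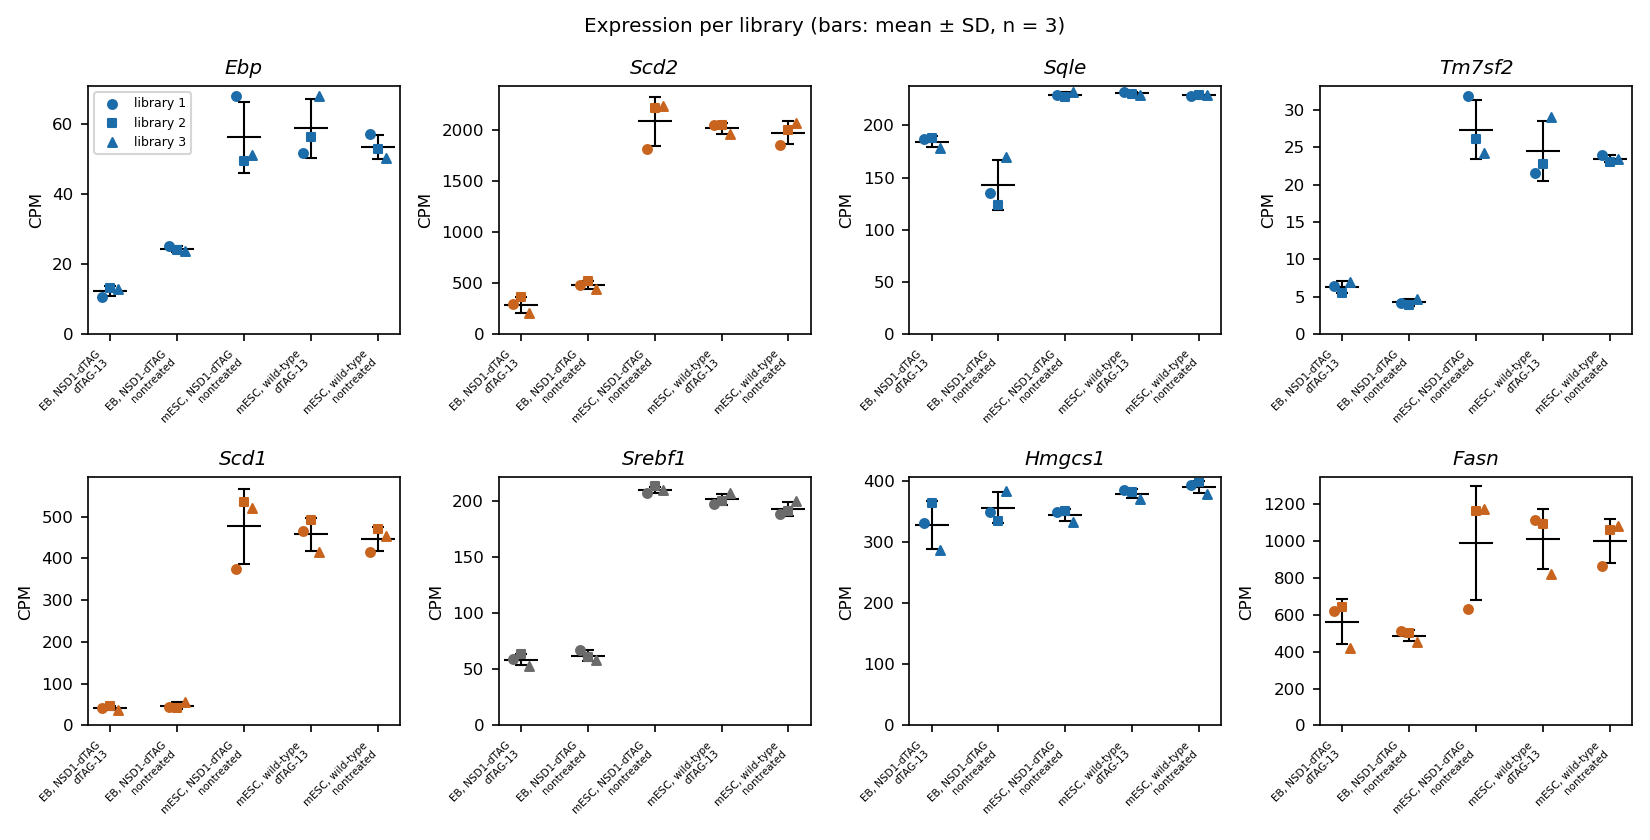
CPM in every library for 8 of the genes, with the 5 groups on the x axis, the replicate number as point shape and the mean ± SD of 3 libraries as bars. Ebp is at 10.6 to 13.2 CPM in dTAG-13 EBs and 23.5 to 25.1 CPM in nontreated EBs, while Hmgcs1 stays between 287 and 398 CPM in all 15 libraries.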

How the data were processed

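RNA-seq was measured in 15 libraries, 3 for each of 5 groups taken from the labels. The authors deposited a file of raw counts for every library, and no scaling was applied to them. Tools listed in the submitters' processing notes are DESeq2 1.30.0, bcl2fastq 2.20.0.422 and STAR, and per the labels' protocols poly(A) RNA went into a directional library kit. How reads were assigned to genes, and on which strand, is not stated in the sources used here. Of 55471 gene IDs, 55230 matched GENCODE release 21 of the mouse (GRCm38) without version numbers. The 92 ERCC spike-ins, 0.292% to 0.496% of counts in the 9 mESC libraries and 0 in all 6 EB libraries, stayed out of library sizes and tests.

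Counts were tested with edgeR 4.0.16 (limma 3.58.1, R 4.3.3): TMM factors, filterByExpr, glmQLFit and glmQLFTest, Benjamini-Hochberg over all genes tested, called at an adjusted p below 0.05. All 29 genes passed the filter in each comparison. Each comparison used the 6 libraries of its groups, and the interaction 12. Printed CPM use TMM factors over all 15 libraries, and TPM divide by the union of exon lengths. Alternatives were DESeq2 1.42.0, RLE factors, no filter, a gene-length offset (lowess span 0.3), a replicate block, ERCC scaling, leaving out each library in turn, and leaving out the libraries that stand apart. The libraries that stand apart were picked from these same data, and leaving them out lowers the spread that the p-values cover. Scripts were tested on simulated data. Plots were drawn with matplotlib 3.10.9 and tables made with pandas 2.3.3 and numpy 2.4.6 in Python 3.11.15.

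The 29 genes and the lists were chosen with earlier results of these data known. By rule all 29 genes are accounted for in each comparison, and of other lists up to 4 called genes by p-value are named, or examples of the most abundant where none was called. A few pathway genes are not reported here. The step counts of the sterol branch and the promoters printed were chosen after values were seen. Replicate numbers were taken to pair libraries where every same-numbered correlation of deviations passed 0.1. These were 0.23, 0.27 and 0.37 for the EB groups and 0.58, 0.29 and 0.29 for NSD1-dTAG against wild-type mESCs. The other comparisons did not pass. Unlike numbers also passed 0.1, at 0.175 and 0.103 between EB libraries 1 and 2. Between libraries 2 and 3 of NSD1-dTAG and wild-type mESCs they reached 0.25 and 0.22. In both comparisons the libraries that stand apart have the same number, so pairing and that numbering cannot be told apart by this rule. Between replicates, chi-square divided by degrees of freedom ran 1.52 to 106, and none was counted as a duplicate.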

Additional observations from a re-analysis of the deposited data

Results flagged for a closer look

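Tests of the difference itself, an interaction between the dTAG-13 effect in NSD1-dTAG EBs and that in wild-type mESCs, put 6 lipid genes on this list. They are 1 of the 29 genes, 1 of 8 efflux and LXR genes and 1 of 15 other fatty acid synthesis genes. The rest are 2 of 8 glycerolipid and 1 of 14 oxidation genes. Of 10 uptake and transport, 10 other SREBP processing and 9 isoprenoid-using genes none was called. Over all 15855 genes tested 2.88% were called. On the log2 scale the difference was -1.13 for Ebp, 1.06 for Abcg1, 0.79 for Acsl4, -0.77 for Agpat3, -0.90 for Dgat2 and -0.87 for Acaa2 (edgeR, adjusted p = 0.00299, 0.0116, 0.0212, 0.0219, 0.0463 and 0.0146). Each effect was called in EBs and not in wild-type mESCs, where 0 of 13784 genes were called. Line, cell state and time of exposure differ between the 2 settings and cannot be told apart from the tag.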

How the results depend on the processing

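The fall of Ebp with dTAG-13 in EBs and its interaction were called in every alternative run. Other counts in that comparison moved. With the replicate block 1834 genes were called, 1 of the 29 higher and 5 lower, and 1830, 1 and 5 when a gene-length offset was added to that block. DESeq2 gave 1686 genes, 1 higher and 4 lower. The gene-length offset gave 1268 of 15236 genes and 3 lower, and no filter 1525 of 28566 genes and 2 lower. Leaving out the libraries that stand apart gave 3233 genes, 3 higher and 5 lower. Leaving out single libraries gave 182 to 1293 genes, 0 to 1 higher and 1 to 2 lower. Between nontreated EBs and mESCs leaving out single libraries gave 7718 to 10169 genes and 18 to 25 lower, with Scap higher in all. The gene-length offset gave 10124 genes and 25 of the 29 lower there. Leaving out the libraries that stand apart gave 11314 genes and 26 lower, Mvd among them. In the block fit there, whose numbers do not pair the libraries, the calls of Cyp51, Idi1 and Lss ended.

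Between NSD1-dTAG and wild-type mESCs 785 genes were called with the replicate block, 650 with the offset, 1388 with both (1 of the 29 higher, Pmvk), 636 by DESeq2, 3123 without the libraries that stand apart (8 higher, 2 lower) and 1 with ERCC scaling, under which the median of all genes was -0.10 in place of 0.01. Single libraries left out gave 1 to 1248 genes and 0 to 2 higher, the 1248 without NSD1-dTAG library 1 and at most 12 without any other. Fasn turned to 0.12 (adjusted p = 0.00106 by edgeR) without the libraries that stand apart, from -0.02. The cause was not tested. dTAG-13 in wild-type mESCs gave 16 genes without those libraries and 0 of the 29.

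The interaction gave 799 genes and 3 lower by DESeq2, and 915 genes and 2 lower without a filter. It gave 612 genes and 3 lower with the offset, and 475 genes and 2 lower (Ebp and Scd2) with the replicate block. Without the libraries that stand apart it gave 1897 genes, 4 lower and 3 higher. Single libraries left out of the interaction gave 202 to 763 genes, 0 to 1 higher and 1 to 2 lower. In its block the numbers do not pair the wild-type mESC libraries. Plain CPM moved sterol sums to 1208 CPM in dTAG-13 EBs, 1620 CPM in NSD1-dTAG mESCs and 1674 CPM in nontreated wild-type mESCs, and the fatty acid sum to 1760 CPM in nontreated EBs.

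The EB libraries hold no spike-in counts to set total RNA, and overlaps with other genes could not be resolved without the strand counted.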

Other observations

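Among lipid genes other than the 29, 7 were called between dTAG-13 EBs and nontreated EBs, given above by list beside the share over all genes (6.76%). The sterol exporter gene Abcg1 was the largest rise in dTAG-13 EBs over nontreated EBs, at 1.00 on the log2 scale. In those EBs Abca1, the other exporter gene, was at 2.25 ± 0.49 CPM with dTAG-13 and 2.46 ± 0.65 CPM without.

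The neighbours of Ebp were looked up after its fall was seen. Of 7 other genes tested within 100 kb, 2 fell with dTAG-13 in EBs and 5 were not called. Porcn, the next gene upstream on the same strand, which encodes an acyltransferase that modifies Wnt proteins, had a log2 fold change of -0.96 (adjusted p = 0.0337 by edgeR), and the amino acid transporter gene Slc38a5 had -2.03 (adjusted p = 0.0416 by edgeR). Was (0.54), Wdr13 (-0.16), Rbm3 (-0.15), Tbc1d25 (-0.35) and Ftsj1 (-0.24) were not called. On the X chromosome 38 of 554 genes (6.86%) fell and 22 rose, and on the autosomes 386 of 14652 genes (2.63%) fell and 582 rose.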
